A study of Mus musculus with 12 samples.

Results

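The genes described here are 43 mouse genes of the G2 phase and mitosis, listed by name and found by symbol among 29522 genes of each FPKM file, and all 43 were present. The set holds the cyclins and kinases that start mitosis (8 genes), the chromosomal passenger complex (3), the spindle checkpoint (4), the centromere and kinetochore (5), spindle motors and microtubule proteins (5), the central spindle and cytokinesis (6), chromosome structure (7), the anaphase-promoting complex with separase and its inhibitor (4), and the transcription factor Foxm1. Their RNA was measured in T helper 17 (Th17) cells, the interleukin-17-producing class of CD4+ T cells, grown from naive splenic CD4+ T cells of wild-type C57BL/6J mice. All 12 cultures were activated through CD3 and CD28 in RPMI medium with a commercial Th17 supplement. Of the 4 groups, 1 received vehicle, 1 received 200 uM ILA, 1 received 0.5 uM GSK805, and 1 received both at these doses (GSK805+ILA), with 3 biological replicates in each. ILA is taken to stand for indole-3-lactic acid, made from tryptophan by gut bacteria, and GSK805 is a compound that blocks Th17 differentiation. The labels give neither the age of the mice nor the time in culture and tie no replicate to an animal. A p-value therefore sets a difference only against the spread of these samples. Whether that covers the spread among animals is not known.

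Cells that leave the G1 phase copy their DNA, and in G2 they build up the cyclins A and B that activate the kinase Cdk1. The same period sees the rise of transcripts for the spindle, the kinetochores that attach chromosomes to it, and the condensins that compact them. The anaphase-promoting complex then marks cyclin B and securin for destruction, which frees separase and lets sister chromatids part. Activated T cells divide fast, and their mitotic transcripts are a common measure of how many cells are cycling. Many of these genes share a promoter design: NF-Y binds CCAAT boxes, and the MuvB core, alone or with FOXM1 or B-MYB, binds a cell cycle genes homology region (CHR) near the start site.

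The libraries held 17.81 M to 23.44 M reads, recovered from the FPKM values and the gene lengths. A member had between 37 and 4081 reads in a library, and 42 members had at least 50 in every library. Mean FPKM over the 12 libraries ran from 0.604 for Cdc25c to 19.5 for Smc4, with a median over members of 4.01. The cell label was checked against markers: Cd3e stood at 18.7 to 19.3 FPKM in vehicle libraries, and Cd4 was present. Il17a, the defining cytokine, stood at 634 to 832 FPKM in vehicle, 153 to 173 in ILA, 97.7 to 122 in GSK805 and 36.4 to 45.5 in GSK805+ILA. Il17f stood at 564 to 656, 271 to 294, 248 to 282 and 131 to 148 FPKM in the same order, and for both, as for Ccr6 and Il23r, every treated library lay below every vehicle library. The summed FPKM of 7 T helper markers was 444 to 474 in vehicle, 826 to 867 in ILA, 475 to 504 in GSK805 and 749 to 803 in GSK805+ILA, and the part of these shifts in the results below was not tested. Markers of CD8 T and NK cells summed to 17.7 to 21.4 FPKM in vehicle, 33.7 to 36.6 in ILA, 13.9 to 16.2 in GSK805 and 18.6 to 20.1 in GSK805+ILA, with Klrd1 at 13.8 to 16.1 in vehicle and 32.2 to 35.1 in ILA. Cd8b1 went the other way, from 3.47 to 5.0 in vehicle to 0.983 to 1.5 in ILA, and Cd8a was at or below 0.298 in every library; their part was not tested either. Markers of B, gamma delta T, myeloid and stromal cells summed to at most 5.05 FPKM in any library. ILA replicate 2 stood apart in haemoglobin RNA, with Hbb-bs at 23.3 FPKM and Hba-a1 at 18.2, against at most 0.0587 for either in every other library.

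RefSeq promoter windows on GRCm38.p6, from 250 bases before the start to 50 after it, were given for 35 of the 43 members. A CHR element, searched as TTTGAA or TTCGAA on both strands, was found for 27 of those 35 members (77.1%), against 21.7% of the 27025 genes in the table and 16.5% of the tested genes it held. CCAAT on either strand was found for 26 of 35 (74.3%), against 41.1% of all genes in the table. Both kinds stood in 1 window for 24 of 35 members (68.6%), against 8.61% of all genes. No CHR match overlapped a CCAAT match. Of 37 CHR matches in the members, 25 began within 50 bases of the start, and 41 of 54 CCAAT matches began in the 150 bases before it. The 5 stretches below are the 130 bases before the RefSeq start, written 5′ to 3′ on the gene's strand with every CHR and CCAAT match in capitals, so that a match on the other strand reads TTCAAA or ATTGG. They were chosen as 4 members with matches and 1 without: Cdc20 (chr4:118437344-118437473, minus strand), Top2a (chr11:99024190-99024319, minus), Kif11 (chr19:37376252-37376381, plus), Mki67 (chr7:135716380-135716509, minus) and Ncaph (chr2:127133955-127134084, minus). In GENCODE vM21 these stretches overlap no exon, except 9 bases of the first exon of Cdc20.
Cdc20: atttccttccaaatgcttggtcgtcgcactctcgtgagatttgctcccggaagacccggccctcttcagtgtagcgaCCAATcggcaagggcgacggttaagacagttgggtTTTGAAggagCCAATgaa
Top2a: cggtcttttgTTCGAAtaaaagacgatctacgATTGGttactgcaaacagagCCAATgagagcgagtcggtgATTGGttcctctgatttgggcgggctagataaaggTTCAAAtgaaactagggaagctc
Kif11: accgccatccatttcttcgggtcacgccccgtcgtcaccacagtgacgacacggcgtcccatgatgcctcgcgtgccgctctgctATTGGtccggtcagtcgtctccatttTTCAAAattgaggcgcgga
Mki67: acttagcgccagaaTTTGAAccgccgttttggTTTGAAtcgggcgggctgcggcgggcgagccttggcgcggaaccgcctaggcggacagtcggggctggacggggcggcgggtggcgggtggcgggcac
Ncaph: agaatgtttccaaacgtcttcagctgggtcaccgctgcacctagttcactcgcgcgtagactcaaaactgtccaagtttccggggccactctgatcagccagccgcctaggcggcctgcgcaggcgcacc
In the Cdc20 stretch a CHR element stood between a pair of CCAAT boxes, the Top2a stretch held 2 CHR elements and 3 CCAAT boxes, and that of Ncaph held neither. The Mki67 stretch held 2 CHR elements, and its CCAAT boxes lay farther upstream, the nearest beginning at base -141 from the start. Of the 35 members, 6 had neither kind in the window: Birc5, Mad2l1, Nuf2, Nusap1, Ncaph and Pttg1. A match is a match of letters, and no binding was measured here.

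**Figure D1:**
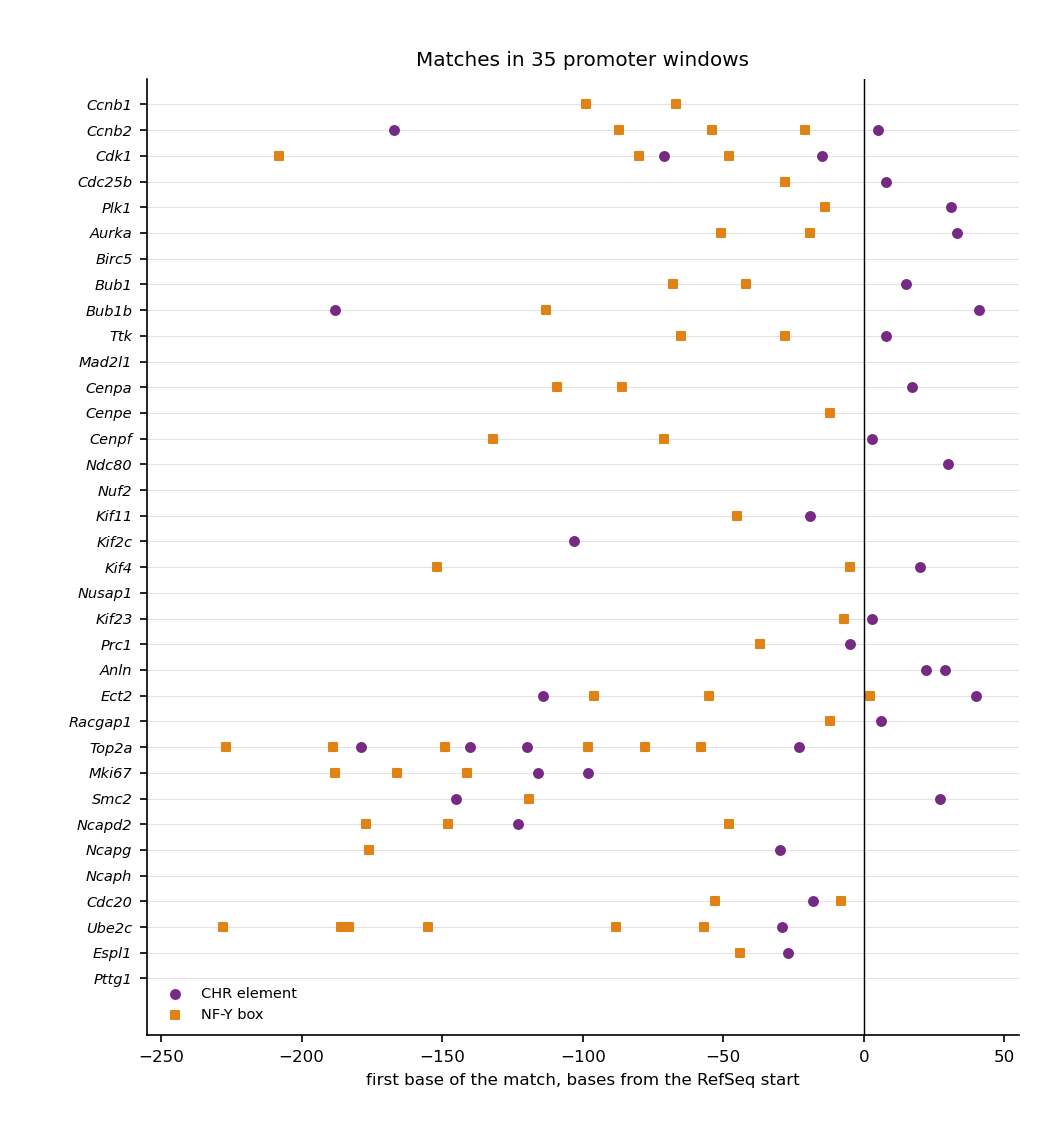
Positions of CHR (circles) and CCAAT (squares) matches in the promoter windows of 35 members; the horizontal axis is the distance of the first base of a match from the RefSeq start, in bases, and where a member had several windows the one with most CHR matches is drawn. CHR matches gather within 50 bases of the start and CCAAT matches lie mostly before it.

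Across the 4 groups the group means of each member were ranked. Of the 43 members, 37 had their lowest group mean with both compounds and 28 had their highest with ILA alone, and 23 did both. The share of all tested genes with such ranks was not counted. Summed FPKM of the members was 217.6 ± 12.9 in vehicle, 273.0 ± 9.69 in ILA, 225.4 ± 4.46 in GSK805 and 177.6 ± 5.83 in GSK805+ILA (SD, n = 3 each). Every ILA library (262.9 to 282.2) lay above every vehicle library (209.6 to 232.5), and every GSK805+ILA library (171.3 to 182.8) lay below them, while vehicle and GSK805 (222.5 to 230.5) overlapped. These are bulk samples, in which fewer dividing cells and less mitotic RNA per cell cannot be told apart. FPKM are relative to each library's total, so a change is a change of share.

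**Figure D2:**
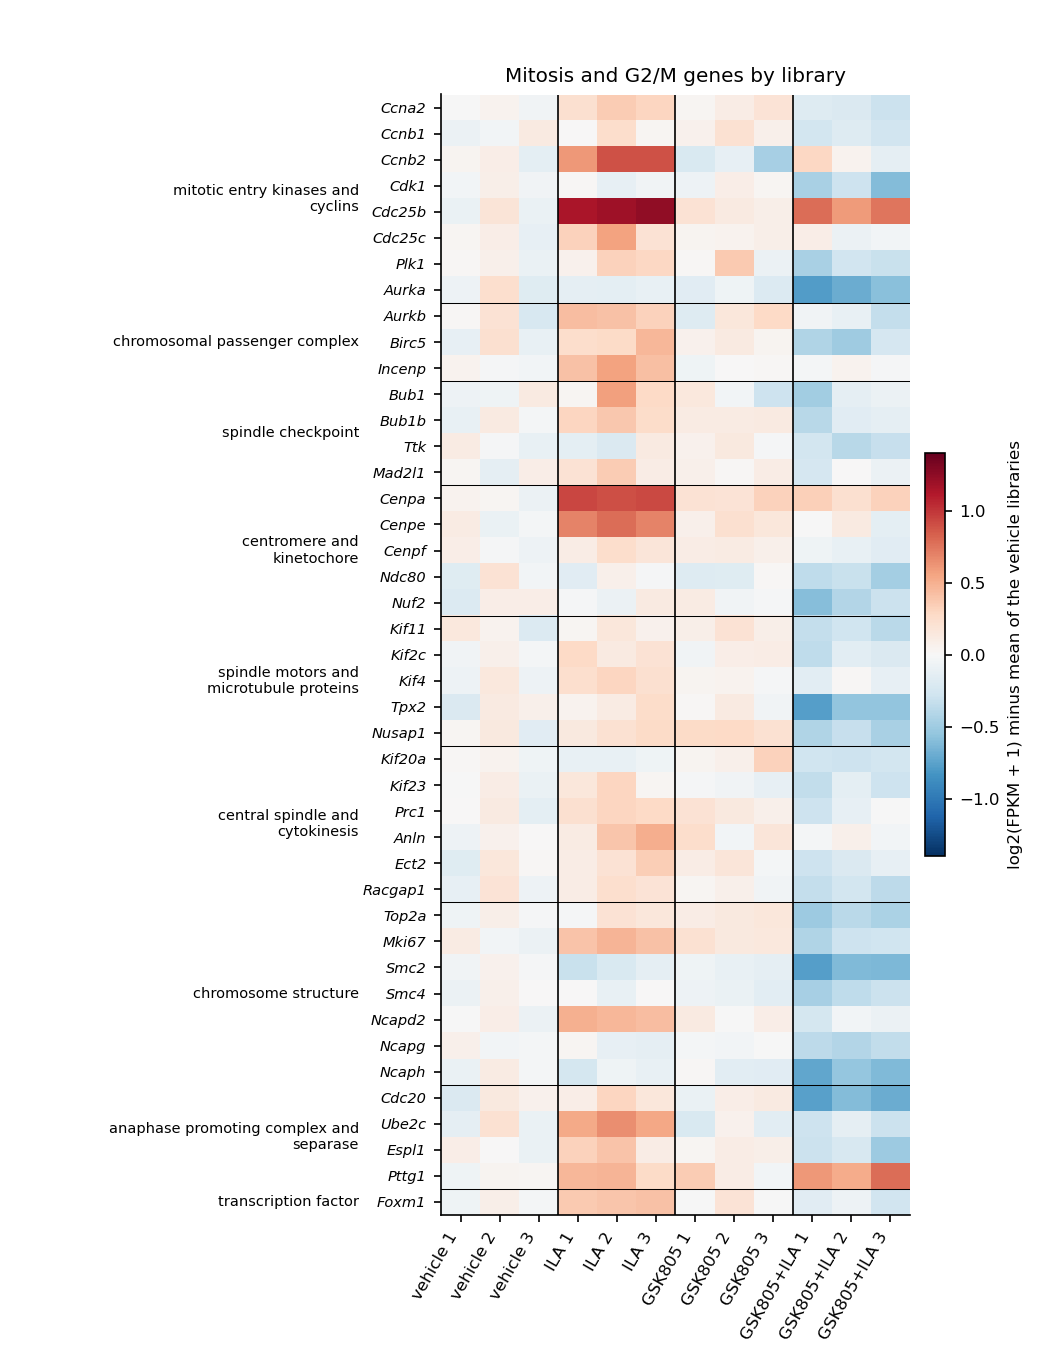
All 43 members (rows, by role) in each of the 12 libraries (columns); colour is log2(FPKM + 1) minus the mean of the 3 vehicle libraries, red higher and blue lower. The GSK805+ILA columns are blue for most members, with Cdc25b, Cenpa and Pttg1 red, and the ILA columns are red for most. With ILA, 33 of the 42 tested members lay above vehicle on average and 9 below, Aurka, Smc2 and Ncaph among the latter. Of these 42, 19 were called higher and 1 lower, or 11 and 6 after median centring.

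ILA alone raised Cdc25b, Cenpa, Ccnb2 and Cenpe the most among the members. Of the 42 tested members 19 rose with ILA, 1 fell (Smc2) and 22 were not called, against 33.9% of all 13511 tested genes called higher and 24.0% called lower. A gene was tested if its mean reached 1 FPKM in a group, and called if the adjusted p (limma on log2(FPKM + 1), Benjamini-Hochberg over all tested genes) was below 0.05; Cdc25c, whose group means were 0.485 FPKM in vehicle, 0.917 in ILA, 0.542 in GSK805 and 0.473 in GSK805+ILA, was not tested. The median member differed by 0.22 on the log2 scale and the median tested gene by 0.06. The rise depended on the scaling: with libraries centred on their median tested gene, which moved the median tested gene to -0.07, 11 members were called higher and 6 lower, and with quantile normalization 10 and 6. Over all tested genes 4582 were called higher and 3236 lower, against 3271 and 4723 after centring and 3590 and 4172 after quantile normalization. Both scalings added falls of Aurka, Kif20a, Ncapg and Ncaph, quantile normalization also of Cdk1 and centring also of Smc4, and 10 members kept their rise in all alternatives: Ccna2, Ccnb2, Cdc25b, Incenp, Cenpa, Cenpe, Mki67, Ncapd2, Ube2c and Foxm1. Without ILA replicate 2, which held the haemoglobin RNA, 13 members were called higher and 1 lower. The same counts came without vehicle replicate 1 and without vehicle replicate 3.

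GSK805 alone moved almost none of them. It raised Cenpa and Nusap1 and lowered no member, 2 called of 42, against 15.7% of tested genes called higher and 7.08% called lower. At an unadjusted p below 0.05 limma gave 3 members higher and 0 lower, and limma voom on the recovered reads called 3 higher and 0 lower. Both calls were lost under quantile normalization, median centring and removal of GC and length trends. The median member differed from vehicle by 0.07, the median tested gene by 0.05, and the member median turned to -0.001 under quantile normalization and -0.011 under centring. Under the latter scaling 1112 tested genes were called higher and 1648 lower, where the FPKM as deposited gave 2119 and 957.

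The 2 compounds together lowered most members. Relative to vehicle 25 fell, 3 rose (Cdc25b, Pttg1 and Cenpa) and 14 were not called, against 20.3% of tested genes called lower and 31.8% called higher. The median member differed by -0.25 while the median tested gene stood at 0.07. With libraries centred on their medians 34 members fell and 3 rose, and after quantile normalization 32 fell and 2 rose, Cenpa no longer passing (adjusted p 0.0517, limma); over all tested genes the calls were 4295 higher and 2738 lower as deposited, 2985 and 4437 after centring, and 3314 and 3618 after quantile normalization. In 27 of 42 members every GSK805+ILA library lay below every vehicle library, as it did in 23.7% of tested genes.

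**Figure D3:**
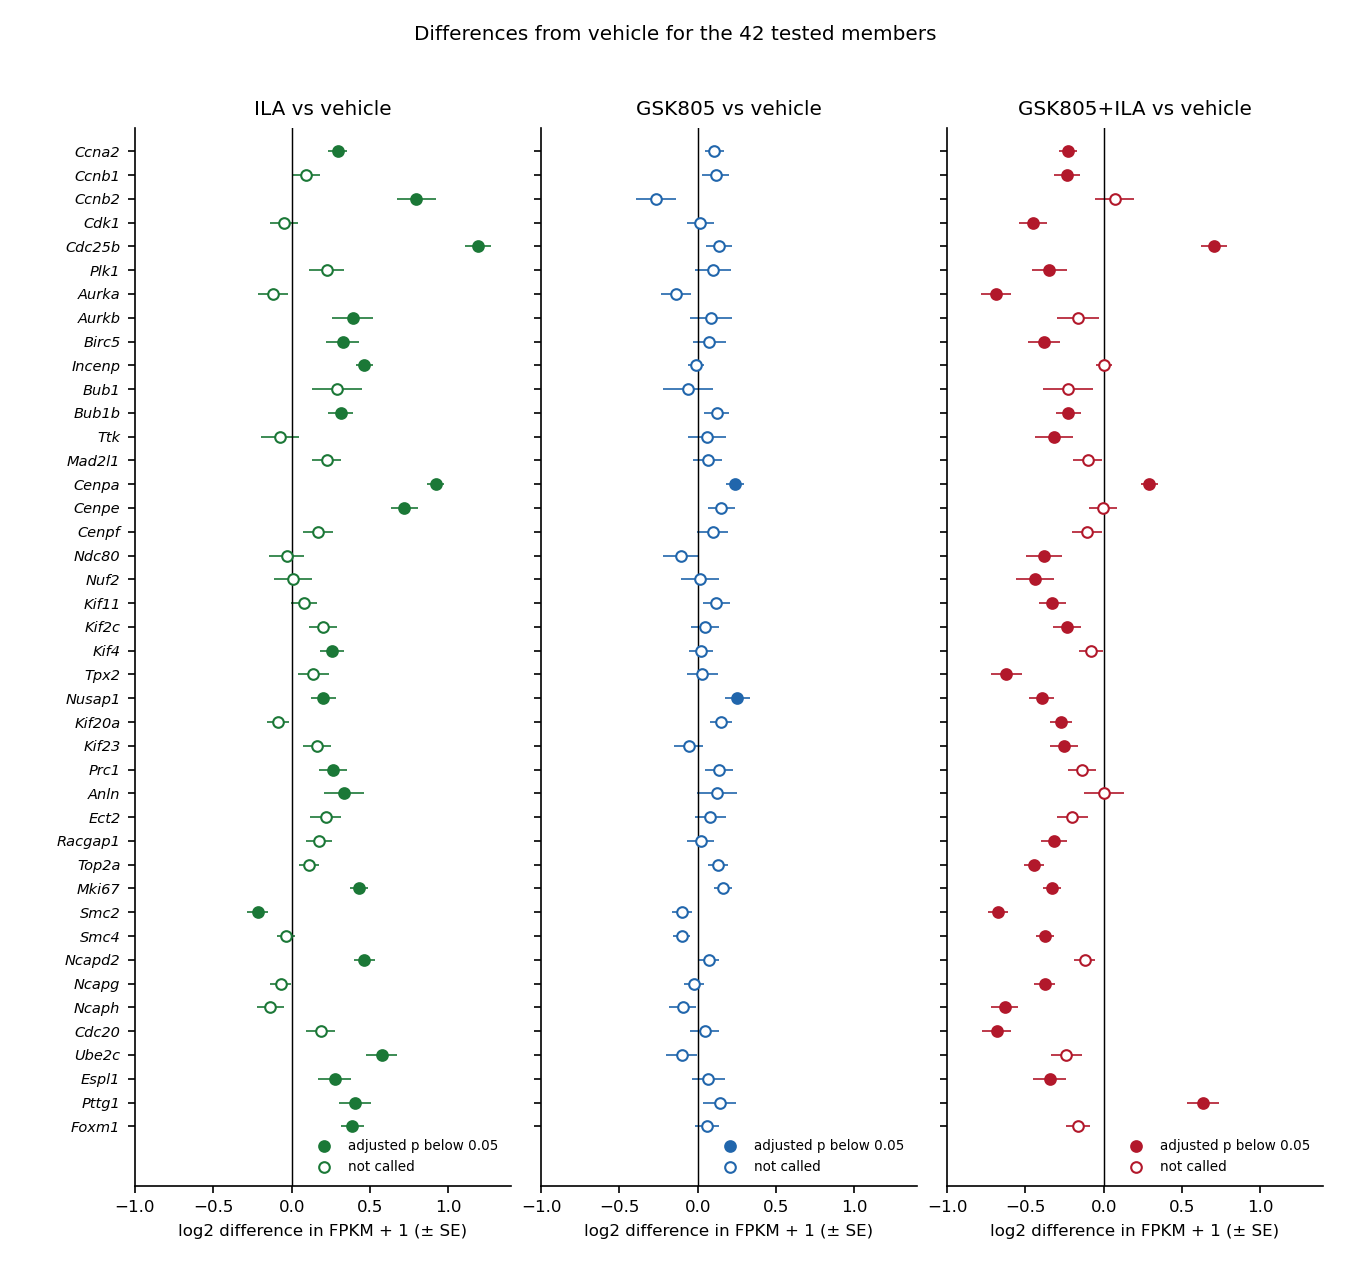
Log2 differences in FPKM + 1 from vehicle for the 42 tested members with ILA, GSK805 and both compounds; bars are standard errors of the limma fit, filled points have an adjusted p below 0.05. With ILA 19 points are filled to the right of 0 and 1 to the left (11 and 6 after median centring), with GSK805 2 to the right (0 after centring), and with both compounds 25 to the left and 3 to the right (34 and 3 after centring).

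Set against either compound alone, the combination was lower still. Relative to ILA 36 members fell and none rose, against 8.64% of tested genes called lower and 9.92% called higher, and the median member differed by -0.49. At an unadjusted p below 0.05 limma gave 1 member higher and 40 lower, and voom called 0 higher and 39 lower. In 41 of 42 members every GSK805+ILA library lay below every ILA library, as it did in 17.2% of tested genes. Pttg1 was the exception, with GSK805+ILA at 6.55 to 8.11 FPKM and ILA at 5.38 to 6.35. Relative to GSK805 27 members fell and 2 rose (Cdc25b and Pttg1), against 17.5% of tested genes called lower and 22.0% called higher, with a median of -0.31. After median centring 30 fell and 2 rose, and over all tested genes 2362 were called higher and 3317 lower where 2968 and 2363 were called as deposited. ILA exceeded GSK805 in 12 members and was below it in Kif20a, against 27.1% called higher and 25.4% called lower. The comparisons share libraries, so their counts are not independent of each other.

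The effect of ILA differed with and without GSK805. The interaction, which is the ILA effect in the presence of GSK805 minus the effect in its absence, was negative and called in 27 of 42 members and positive and called in none (median -0.49), against 8.70% of tested genes called lower and 5.15% called higher. At an unadjusted p below 0.05 limma gave 0 members higher and 38 lower, and voom called 0 higher and 37 lower. It was below 0 in 41 members, with Pttg1 at 0.09 (standard error 0.146, adjusted p 0.728, limma). Called members numbered 19 after quantile normalization and 20 after centring, and over all tested genes centring turned 696 higher and 1175 lower calls into 1289 and 750. With GC and length trends removed those were 1103 and 882, and 23 members were called.

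**Figure D4:**
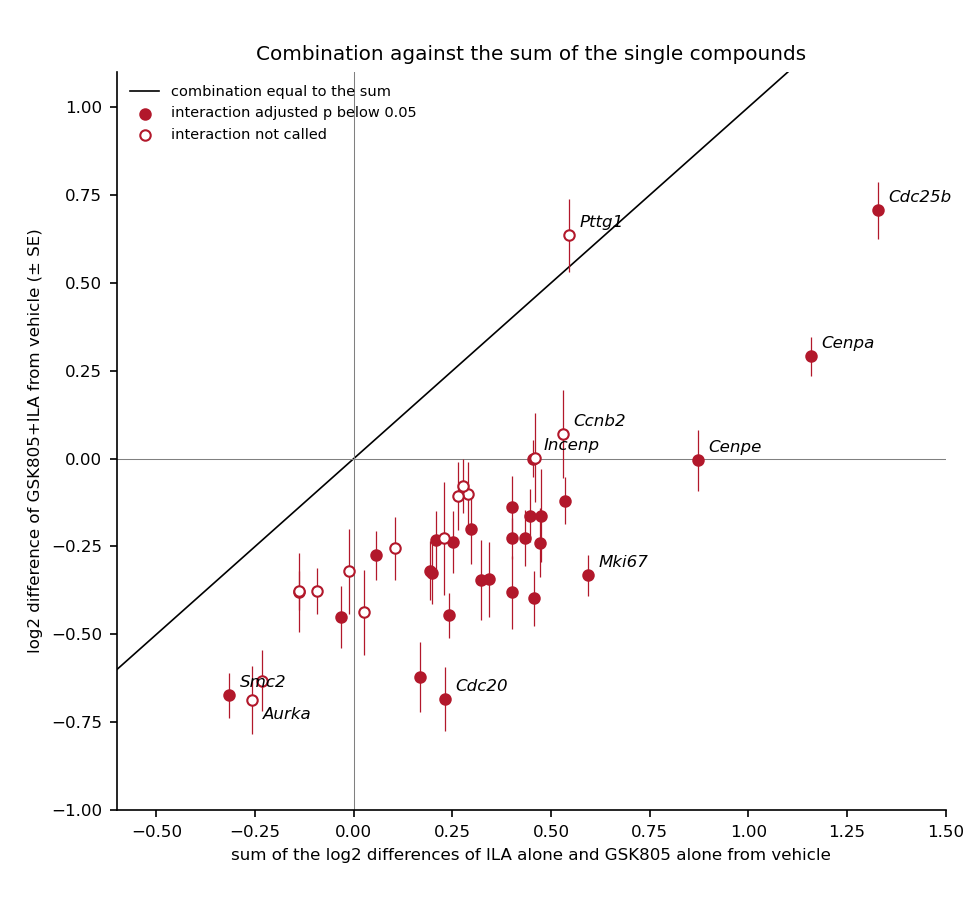
For each of the 42 tested members, the log2 difference of GSK805+ILA from vehicle (vertical, bars are standard errors) against the sum of the differences of ILA alone and GSK805 alone (horizontal); filled points have a called interaction, and both axes use the same vehicle libraries. Of the points 41 lie below the line where the combination would equal the sum, and Pttg1 lies above it.

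Among the mitotic entry genes, Cdc25b, the phosphatase that removes the inhibitory phosphates from Cdk1, had the largest rise of the members with ILA on the log2(FPKM + 1) scale. Its FPKM was 3.62, 4.56 and 3.60 in vehicle, 9.85, 10.1 and 10.6 in ILA, 4.66, 4.35 and 4.19 in GSK805, and 7.43, 6.39 and 7.24 in GSK805+ILA. ILA libraries were highest, those with both compounds came next without overlap, and vehicle and GSK805 overlapped. The rise with ILA was 1.19 on the log2 scale (standard error 0.082, adjusted p 2.8e-07, limma) and that with both compounds 0.71 (adjusted p 2.6e-05). Cdc25b shares exon bases with Spef1 on the opposite strand, which stood at a mean of 1.65 FPKM and also rose with ILA (0.44, adjusted p 0.00797), and how the authors' counting treated strand was not stated.

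Ccnb2, a B-type cyclin, stood at 5.39, 5.67 and 4.69 FPKM in vehicle, 8.46, 10.6 and 10.6 in ILA, 4.38, 4.75 and 3.51 in GSK805, and 6.60, 5.44 and 4.73 in GSK805+ILA. Only the ILA libraries stood apart from the rest. The rise with ILA was 0.80 (adjusted p 0.00022, limma), and ILA exceeded GSK805 by 1.06, the largest such difference of a member on that scale. Its interaction of -0.46 was not called (adjusted p 0.108). Ccna2, cyclin A2, was called higher with ILA and lower with both compounds. It stood at 7.26, 7.57 and 7.03 FPKM in vehicle, 8.69, 9.62 and 9.17 in ILA, 7.46, 7.89 and 8.43 in GSK805, and 6.30, 6.21 and 5.73 with both. ILA lay above and GSK805+ILA below all other libraries, with differences from vehicle of 0.29 (adjusted p 0.00117) and -0.23 (adjusted p 0.00685, limma). Ccna2 is 1 of 11 members that share exon bases with a gene on the opposite strand. Its neighbour Exosc9, at a mean of 6.87 FPKM, differed by -0.18 with ILA (adjusted p 0.042) and by -0.23 with both compounds (adjusted p 0.016).

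Aurka, the kinase of spindle poles, had the largest fall of the members with both compounds on the log2(FPKM + 1) scale. Its FPKM was 4.71, 6.07 and 4.35 in vehicle, 4.52, 4.48 and 4.56 in ILA, 4.37, 4.75 and 4.25 in GSK805, and 2.48, 2.69 and 3.01 in GSK805+ILA. The last group lay below all 9 other libraries, which overlapped. The fall was -0.69 (standard error 0.097, adjusted p 0.00012, limma), and neither compound alone gave a call. Cdk1 fell with both compounds (-0.45, adjusted p 0.0013), as did Plk1 (-0.35, adjusted p 0.0237) and Ccnb1 (-0.23, adjusted p 0.0361), of which the last 2 lost the call when single libraries were left out. Ccnb1 has pseudogenes of 96.6% to 99.2% identity, those in the files at or below a mean of 0.181 FPKM.

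In the chromosomal passenger complex, which corrects wrong chromosome attachments, all 3 members rose with ILA, beside 33.9% of all tested genes. Incenp, its scaffold, stood at 10.2, 9.72 and 9.52 FPKM in vehicle, 13.4, 14.96 and 13.5 in ILA, 9.37, 9.89 and 9.97 in GSK805, and 9.59, 10.2 and 9.70 in GSK805+ILA. Only ILA stood apart, with a rise of 0.47 (standard error 0.052, adjusted p 1.5e-05, limma). With both compounds the difference from vehicle was -0.00 (adjusted p 0.997), and the interaction was -0.46 (adjusted p 0.00341). Birc5, survivin, rose with ILA (0.33, adjusted p 0.0186) and fell with both (-0.38, adjusted p 0.00928), and Aurkb, the kinase of the complex, rose with ILA (0.39, adjusted p 0.0259) and was at -0.16 with both (adjusted p 0.329). The ILA calls of Birc5 and Aurkb were lost under quantile normalization and centring, where that of Incenp was kept.

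Of the spindle checkpoint, which holds anaphase until all kinetochores are attached, Bub1b (BubR1) was the most abundant member. It stood at 4.29, 5.20 and 4.55 FPKM in vehicle, 5.95, 6.38 and 5.80 in ILA, 5.15, 5.15 and 5.18 in GSK805, and 3.32, 4.07 and 4.19 in GSK805+ILA. ILA libraries were the highest and those with both compounds the lowest, without overlap with vehicle. It rose by 0.31 with ILA (adjusted p 0.00626, limma) and fell by 0.23 with both (adjusted p 0.0366), the first lost under quantile normalization and centring, the second in 5 of 16 alternatives. Ttk (Mps1) fell with both compounds (-0.32, adjusted p 0.0447, lost in 7 of 14 alternatives), while Bub1 and Mad2l1 were called lower with both compounds relative to ILA (-0.52 and -0.33, lost in 9 of 15 and 7 of 15 alternatives) and were not called relative to vehicle or GSK805.

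Among centromere and kinetochore genes, Cenpa, the histone H3 variant that marks centromeres, was called in all 3 comparisons with vehicle. It stood at 6.28, 6.18 and 5.66 FPKM in vehicle, 12.4, 12.1 and 12.3 in ILA, 7.08, 7.06 and 7.80 in GSK805, and 7.85, 7.19 and 7.79 in GSK805+ILA. Every treated library lay above every vehicle library, and those with ILA alone stood far above the rest. The differences from vehicle were 0.92 with ILA (standard error 0.055, adjusted p 1.1e-07), 0.24 with GSK805 (adjusted p 0.0103) and 0.29 with both (adjusted p 0.00101, limma). Only the ILA call was kept in all alternatives. The GSK805 call was lost under quantile normalization, median centring and removal of GC and length trends, and that with both compounds under quantile normalization. Cenpe, a kinetochore motor, rose with ILA (0.72, adjusted p 2.9e-05) and stood at -0.01 with both compounds (adjusted p 0.968). Ndc80 and Nuf2, partners in the complex that grips microtubules, stood at -0.03 and 0.01 with ILA and fell with both compounds by 0.38 and 0.44 (adjusted p 0.0144 and 0.0103).

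Spindle motors and microtubule proteins fell with the combination in 4 of 5 cases, beside 20.3% of all tested genes. Kif4 was the member not called, and the call of Kif2c (adjusted p 0.0442, limma) was lost in 9 of 15 alternatives. With ILA, Kif4 rose by 0.255 (adjusted p 0.0144, limma), a call lost in 6 of 15 alternatives. Pdzd11, at a mean of 9.6 FPKM, shares exon bases with Kif4 on the opposite strand and also rose with ILA (0.28, adjusted p 0.02, limma). The part of Pdzd11 reads in the Kif4 values was not tested. Tpx2, which activates Aurka on spindle microtubules, stood at 4.44, 5.82 and 5.59 FPKM in vehicle, 5.46, 5.76 and 6.45 in ILA, 5.31, 5.82 and 5.04 in GSK805, and 2.68, 3.28 and 3.26 in GSK805+ILA. The last group lay below all others, which overlapped, and differed from vehicle by -0.62 (standard error 0.099, adjusted p 0.00029, limma). Nusap1, which bundles spindle microtubules, had 4.35, 4.78 and 3.72 FPKM in vehicle, 4.77, 5.10 and 5.32 in ILA, 5.33, 5.40 and 5.10 in GSK805, and 2.94, 3.22 and 2.84 with both. GSK805 lay above vehicle without overlap and GSK805+ILA below it. The differences were 0.25 with GSK805 (adjusted p 0.0369) and -0.40 with both (adjusted p 0.00123), and the interaction was -0.85 (adjusted p 0.00137, limma). The GSK805 call of Nusap1 was lost in 10 of 16 alternatives. Its neighbour Oip5, itself a centromere gene, shares exon bases with it on the opposite strand, and differed by 0.34 with GSK805 (adjusted p 0.042) and -0.24 with both (adjusted p 0.0783). Oip5 also fell with both compounds relative to GSK805 (-0.58, adjusted p 0.00127) and to ILA (-0.37, adjusted p 0.0327), with an interaction of -0.71 (adjusted p 0.0122, limma). Kif11, the motor that pushes spindle poles apart, fell with both compounds (-0.33, adjusted p 0.00779).

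Kif20a, a motor of the central spindle, was the only member called lower with ILA than with GSK805. Its FPKM was 6.77, 6.94 and 6.38 in vehicle, 6.15, 6.14 and 6.40 in ILA, 6.92, 7.11 and 8.60 in GSK805, and 5.36, 5.29 and 5.43 in GSK805+ILA. The GSK805+ILA values were lowest without overlap, and ILA lay below GSK805 without overlap (-0.24, adjusted p 0.0141, limma). Cdc23 shares exon bases with Kif20a on the opposite strand, at a mean of 7.75 FPKM, and was not called in any of the 7 comparisons. Kif23 and Racgap1, which form the centralspindlin complex, fell with both compounds (-0.26 and -0.32), while Prc1, Ect2 and the furrow protein Anln differed from vehicle by -0.14, -0.20 and 0.00 and were not called.

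With both compounds 6 of 7 chromosome structure genes fell relative to vehicle and 7 of 7 relative to each single compound. Of all tested genes 20.3% fell relative to vehicle, 17.5% relative to GSK805 and 8.64% relative to ILA. The member not called was Ncapd2 against vehicle (-0.12, adjusted p 0.155, limma). Against GSK805 its call (-0.19, adjusted p 0.0402, limma) was lost in 7 of 16 alternatives. Mki67 encodes Ki-67, the proliferation marker that coats mitotic chromosomes, and stood at 15.2, 13.7 and 13.2 FPKM in vehicle, 18.8, 20.0 and 19.0 in ILA, 16.4, 15.5 and 15.6 in GSK805, and 10.2, 11.3 and 11.3 in GSK805+ILA. The 3 treatments each lay apart from vehicle, above it with ILA and with GSK805 and below it with both. The differences were 0.43 (adjusted p 7.1e-05), 0.16 (adjusted p 0.0673, not called) and -0.33 (adjusted p 0.0006), and the interaction of -0.93 (standard error 0.083, adjusted p 0.00043, limma) was the largest of all tested members on the log2(FPKM + 1) scale. Top2a, the topoisomerase that untangles sister chromatids, fell with both compounds (-0.45, adjusted p 0.00013) and stood at 0.11 with ILA (adjusted p 0.151).

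The condensin subunits did not all do the same with ILA. Smc4, a core subunit and the most abundant member, stood at 20.0, 22.5 and 21.4 FPKM in vehicle, 21.3, 19.7 and 21.3 in ILA, 20.2, 20.0 and 19.1 in GSK805, and 15.1, 16.4 and 17.1 in GSK805+ILA. Only the combination lay apart, lower by -0.38 (adjusted p 0.00019, limma). Smc2, its partner, had 7.64, 8.36 and 7.88 FPKM in vehicle, 6.19, 6.74 and 7.22 in ILA, 7.59, 7.32 and 7.18 in GSK805, and 4.24, 4.81 and 4.80 with both. ILA lay below vehicle (-0.22, adjusted p 0.0136, lost without vehicle replicate 2 and without ILA replicate 1, highest adjusted p 0.0594) and the combination below all others (-0.67, adjusted p 6e-06). Ncapd2, a regulatory subunit, rose with ILA (0.46, adjusted p 0.00011), whereas Ncapg and Ncaph stood at -0.07 and -0.14 and were called lower with ILA under centring and quantile normalization.

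At the exit from mitosis, Cdc20, the coactivator of the anaphase-promoting complex, had the largest fall of the members on the log2(FPKM + 1) scale relative to either compound alone. Its FPKM was 13.5, 17.4 and 16.3 in vehicle, 16.8, 19.5 and 17.6 in ILA, 14.6, 16.8 and 17.2 in GSK805, and 8.86, 9.97 and 9.32 in GSK805+ILA. The 9 libraries without the combination overlapped and all lay above it. The differences of the combination were -0.68 from vehicle (adjusted p 8.6e-05), -0.73 from GSK805 (adjusted p 9.7e-05) and -0.87 from ILA (adjusted p 0.00016, limma). Elovl1, with a mean of 34.1 FPKM, shares exon bases with Cdc20 on the opposite strand, and it differed from vehicle by -0.09 with both compounds (adjusted p 0.234) and from ILA by 0.23 (adjusted p 0.0218). Ube2c, the ubiquitin-conjugating partner of the complex, rose with ILA (0.57, adjusted p 0.00042), and Espl1, separase, fell with both (-0.34, adjusted p 0.0181).

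Pttg1, securin, which holds separase inactive until anaphase, went the other way and was singled out after its values were seen. It stood at 4.06, 4.41 and 4.39 FPKM in vehicle, 6.32, 6.35 and 5.38 in ILA, 5.74, 4.67 and 4.17 in GSK805, and 7.04, 6.55 and 8.11 in GSK805+ILA. Libraries with both compounds were the highest, vehicle libraries lay below those with ILA, and GSK805 overlapped both of these. It rose by 0.63 with both compounds (standard error 0.103, adjusted p 0.00034, limma) and by 0.41 with ILA (adjusted p 0.00553, 0.073 under quantile normalization), and it was the only member with its highest group mean in GSK805+ILA. Foxm1, the transcription factor of the G2 phase, stood at 3.56, 3.998 and 3.67 FPKM in vehicle, 5.10, 5.21 and 5.29 in ILA, 3.72, 4.42 and 3.71 in GSK805, and 3.26, 3.51 and 2.94 in GSK805+ILA. ILA lay above all others and the combination below all others. It rose with ILA (0.39, adjusted p 0.00097), differed from vehicle by -0.16 with both (adjusted p 0.0914, called in 3 alternatives) and fell relative to ILA (-0.55, adjusted p 0.00075).

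**Figure D5:**
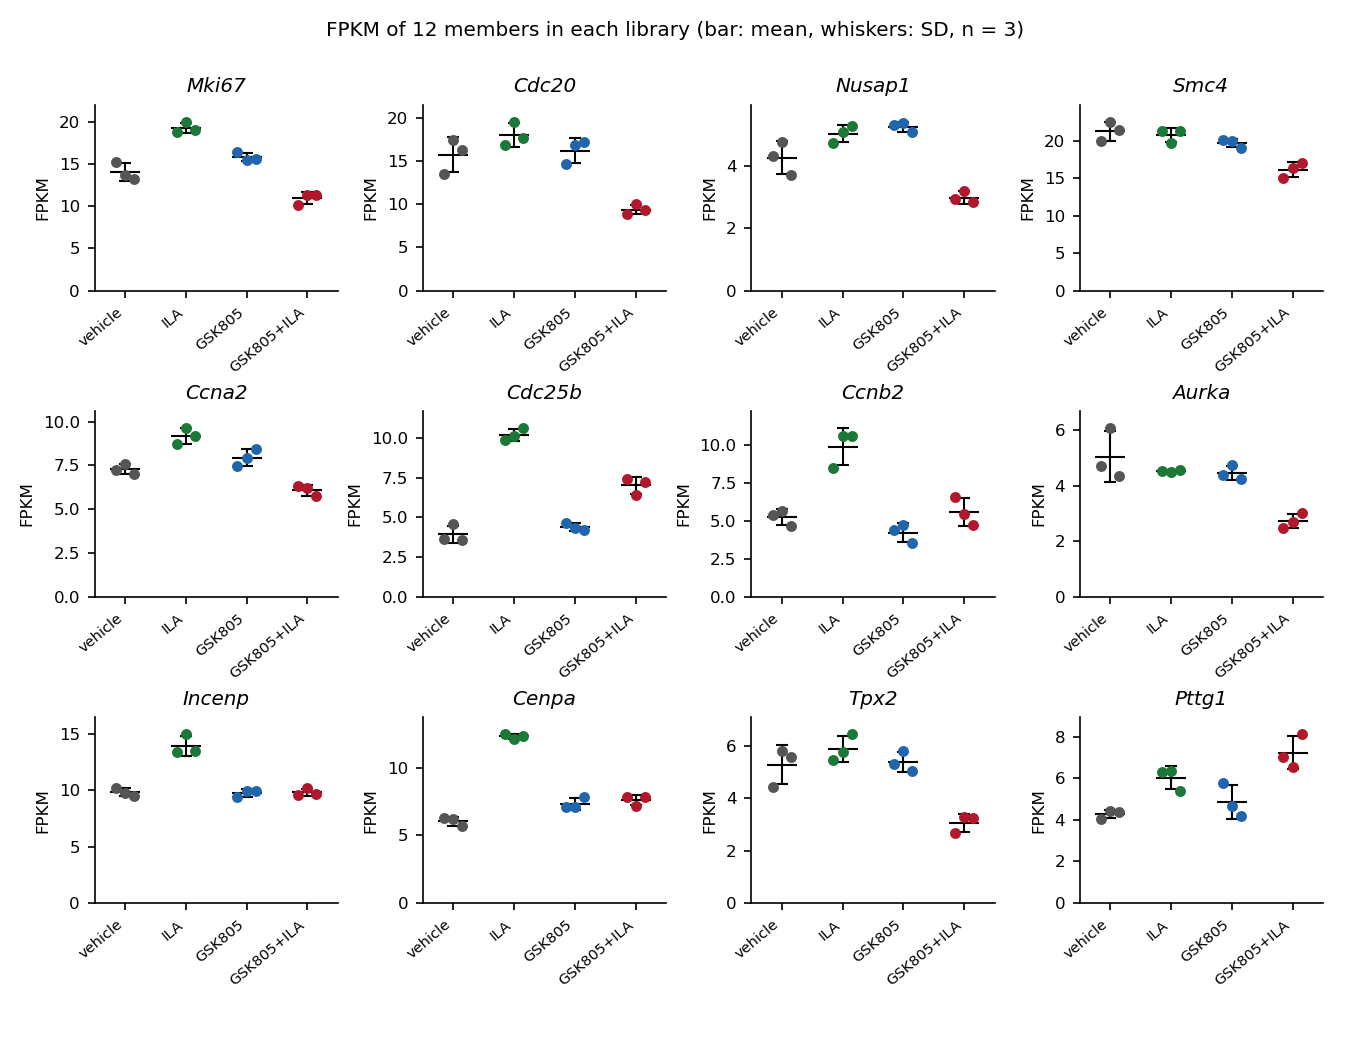
FPKM of 12 members in each library, with the mean (bar) and SD (whiskers) of the 3 libraries of each group. ILA is the highest group for Mki67, Cdc20, Ccna2, Cdc25b, Ccnb2, Incenp, Cenpa and Tpx2, and GSK805+ILA is the lowest for all but Cdc25b, Ccnb2, Incenp, Cenpa and Pttg1.

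Other genes of the cell cycle were counted from fixed lists. Of 56 further mitosis genes that were tested, 18 rose and 9 fell with ILA (33.9% and 24.0% of all tested genes), 1 rose and 5 fell with GSK805 (15.7% and 7.08%), and 2 rose and 27 fell with both compounds (31.8% and 20.3%). Among them Psrc1, a spindle protein, rose with ILA from 2.10 ± 0.232 to 6.80 ± 0.591 FPKM (SD, n = 3; log2 difference 1.33, adjusted p 3.8e-06, limma), while Cks2, a small Cdk-binding protein, fell from 72.3 ± 2.00 to 39.6 ± 1.62 FPKM (-0.85, adjusted p 1.7e-07). Its relative Cks1b fell with GSK805 (-0.52, adjusted p 0.012) and with both compounds (-1.25, adjusted p 7.9e-06), the largest fall of that list. Mis18a, needed to load Cenpa at centromeres, fell with both as well (-0.78, adjusted p 1.1e-05).

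Of 46 genes of G1/S and DNA replication 25 fell and 3 rose with the combination, beside 20.3% and 31.8% of all tested genes, among them the helicase subunit Mcm5 (-1.05, adjusted p 4.2e-06, limma) and the loading factor Cdc6 (-1.07, adjusted p 1.3e-05). With ILA 14 of the 46 rose and 12 fell, beside the 33.9% and 24.0% of all tested genes, and cyclin E2 (Ccne2) fell by 1.03 (adjusted p 1.2e-05). Of 17 genes of the anaphase-promoting complex and its partners 3 rose and 5 fell with both compounds, Ube2s among the falls (-0.60, adjusted p 3.5e-06). Of 13 cohesin genes 4 rose and 4 fell, where 31.8% of all tested genes rose and 20.3% fell. Medians of log2 difference with both compounds were -0.29 for the further mitosis genes, -0.30 for G1/S and replication, -0.02 for the anaphase-promoting complex and 0.11 for cohesin, beside 0.07 for all tested genes. The interaction was called negative in 22 of the 56 further mitosis genes and positive in 1. It was called negative in 11 of the 46 G1/S and replication genes and positive in 0. Over all tested genes it was called negative in 8.70% and positive in 5.15%.

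A list of 20 genes of the G2 checkpoint and Cdk1 control held both inhibitors and promoters of mitotic entry. Of these 20, 9 fell and 3 rose with ILA, 1 fell and 1 rose with GSK805, and 9 fell and 3 rose with both. Over all tested genes 24.0% fell and 33.9% rose with ILA, 7.08% and 15.7% with GSK805, and 20.3% and 31.8% with both. The Cdk inhibitor p21 (Cdkn1a) fell in all 3 comparisons with vehicle, by 0.82 with ILA, 0.70 with GSK805 and 1.24 with both (adjusted p 4.2e-07, 2.6e-05 and 2.9e-08, limma), reaching 33.0 ± 1.57 FPKM in GSK805+ILA. The checkpoint kinase Chek1 fell with ILA (-0.70) and with both (-0.68). Among 20 tested genes of the DREAM, E2F and pocket protein list, 5 rose and 4 fell with ILA, and 4 rose and 6 fell with both. The retinoblastoma gene Rb1 rose with ILA (1.11, adjusted p 1.1e-07) and with both (0.65, adjusted p 1.2e-05), and its relative Rbl2 rose too (0.78 and 0.60). Of 9 tested G1 cyclins, kinases and Cdk inhibitors 3 rose and 3 fell with ILA, and 4 rose and 1 fell with both, Ccnd3 rising in each (0.81 and 0.67).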

How the data were processed

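RNA was measured in 12 libraries of 4 groups. The deposited unit is FPKM, made by the authors and taken unchanged. FastQC 0.11.2, Bowtie (no version stated) and the build mm10 are named in the submitters' processing notes. Counting program, annotation and strand were not given in the sources used here. With GENCODE vM21 lengths 98.6% to 98.8% of values per library came within 0.1 of whole reads.

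The members, lists and tests were chosen with earlier results of these data known. FPKM were transformed as log2(FPKM + 1), genes under a mean of 1 FPKM in every group were dropped, and limma 3.58.1 (R 4.3.3) fitted 1 mean per group to all 12 libraries with trend and robust moderation. P-values were adjusted by Benjamini-Hochberg over 13511 genes in each of 7 comparisons. The fit was tested on simulated data. Full values were given for the most abundant member of each role and for the largest called rise and fall of each comparison, and up to 3 genes of each other list were named per comparison with vehicle. Alternatives were quantile normalization, median centring, a pseudocount of 0.1, no filter, a filter at 5 FPKM, no trend or robust moderation, the replicate block, only the groups compared, voom on recovered reads, removal of GC and length trends, and leaving out each library. Lin54, Ms4a1, Ncr1, Tcrg-V6, Col3a1 and a few other listed genes were not analysed here. Tables and figures came from Python 3.11.15 with pandas 2.3.3 and matplotlib 3.10.9.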

Additional observations from a re-analysis of the deposited data

Results flagged for a closer look

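The ILA effect with GSK805 present differed from that without it, by the interaction test, in 27 members, all in the negative direction. Over all tested genes 8.70% were called negative and 5.15% positive. The values are log2 effects of ILA with GSK805 minus without. For the entry kinases and cyclins they were Plk1 -0.67, Ccna2 -0.63, Cdc25b -0.62, Ccnb1 -0.44 and Cdk1 -0.42. For the chromosomal passenger complex and spindle checkpoint they were Birc5 -0.78, Bub1b -0.66, Aurkb -0.64 and Incenp -0.46. For kinetochore, spindle and cytokinesis genes they were Cenpe -0.88, Cenpa -0.87, Nusap1 -0.85, Tpx2 -0.79, Prc1 -0.54, Kif11 -0.53, Racgap1 -0.51, Ect2 -0.50, Kif2c -0.49 and Kif20a -0.33. For chromosome structure they were Mki67 -0.93, Top2a -0.69, Ncapd2 -0.65 and Smc2 -0.36. For the anaphase-promoting complex and Foxm1 they were Cdc20 -0.91, Ube2c -0.71, Espl1 -0.69 and Foxm1 -0.61. Of the 27, 18 kept the call in all alternatives, and 9 lost it in some: Cdk1 in 16 of 20, Kif20a in 16 of 21, Aurkb in 15 of 21, Ect2 in 13 of 20, Ccnb1 in 10 of 20, Smc2 in 10 of 21, Kif2c in 9 of 20, Plk1 in 2 of 21 and Racgap1 in 1 of 20. No group had more than 3 libraries, so single outlying samples were not tested for.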

How the results depend on the processing

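Members called kept their direction in all alternatives, and 30 of 36 falls of GSK805+ILA against ILA, 19 of 28 calls of GSK805+ILA against vehicle and 10 of 20 of ILA against vehicle were kept in all of them. Quantile normalization, median centring and removal of GC and length trends left 0 of 2 GSK805 calls, and with no filter or only the groups compared 1 was left. The median difference of members with GSK805 then stood at -0.001, -0.011 and -0.014. With ILA against vehicle quantile normalization gave 10 members higher and 6 lower (median 0.045) and centring 11 and 6 (0.085), against 19 and 1, and the median was 0.297 with a pseudocount of 0.1, 0.32 with the filter at 5 FPKM and 0.316 with voom. For GSK805+ILA against vehicle the median was -0.407 (quantile), -0.384 (centring), -0.344 (pseudocount), -0.341 (voom) and -0.341 (GC and length), and against GSK805 it was -0.392 (quantile), -0.419 (pseudocount) and -0.433 (voom). Against ILA it was -0.612 (pseudocount), -0.564 (filter at 5 FPKM) and -0.625 (voom), and for ILA against GSK805 0.069 (quantile) and 0.222 (filter at 5 FPKM), with 3 members lower after quantile normalization and 2 after centring. The interaction median was -0.413 (quantile), -0.418 (centring), -0.696 (pseudocount), -0.646 (filter at 5 FPKM) and -0.713 (voom), and without a filter 1067 of all genes were called against 1871. The filter at 5 FPKM left 22 members, of which 14, 15 and 20 fell with both compounds against vehicle, GSK805 and ILA. Over all genes that passed this filter 2297, 2134 and 920 were called lower in the same order. The causes of these shifts between alternatives were not tested.

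Leaving out single libraries, members lower with ILA numbered 0 to 1 (0 without vehicle replicate 2 or ILA replicate 1) and members higher with GSK805 1 to 2 (1 without vehicle replicate 3 or any 1 GSK805 library). Members higher with ILA numbered 13 to 20 (13 without vehicle replicate 1, vehicle replicate 3 or ILA replicate 2, and 20 without vehicle replicate 2). All genes called for GSK805+ILA against ILA numbered 1604 to 2165 (1604 without GSK805+ILA replicate 3, 2507 with all), and for the interaction 1201 to 1974 (1232 without vehicle replicate 3, 1206 without GSK805 replicate 1, 1201 without GSK805+ILA replicate 3). In deviations from group means over all tested genes, 18 same-numbered pairs of libraries had correlations of -0.082 to 0.078, so no shared pattern was seen. Whether same-numbered cultures shared an animal or a batch cannot be told from this. With the number as a block, members called higher and lower were 19 and 1 (ILA against vehicle), 2 and 0 (GSK805), 3 and 24 (both compounds), 3 and 26 (both against GSK805), 0 and 34 (both against ILA), 14 and 1 (ILA against GSK805) and 0 and 26 (interaction). In depth, Cdc25c had the fewest reads of a member (37 to 110 per library), followed by Ttk (53 to 121).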
